A study of Mus musculus with 20 samples.

Results

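The 10 genes described here encode the transcriptional end of the Hippo pathway and genes that it is known to control. They are Yap1, Wwtr1, Tead1, Tead4, Ccn1, Ccn2, Ankrd1, Amotl2, Lats2 and Ajuba, chosen by symbol from a table of 50559 genes, and all 10 were found. Each was compared gene by gene between 3 kinds of mouse liver tumor and control livers.

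The RNA of whole tissue pieces was sequenced in 20 libraries, with 5 in each of the groups Aldafermin+MYC, FGF19+MYC, sgTrp53+MYC and liver. The tumors arose in young adult female wild-type C57BL/6J mice after hydrodynamic tail-vein delivery of plasmids, which transfects a fraction of the hepatocytes. A transposase inserted expression cassettes for the oncogene MYC and for either human FGF19, an endocrine growth factor that represses bile acid synthesis, or Aldafermin, an engineered analog of FGF19. In the sgTrp53+MYC mice, a CRISPR plasmid against the tumor suppressor gene Trp53 took the place of the hormone. All 3 tumor groups thus carried the MYC cassette, no group carried MYC alone, and none was a stable mouse line. The livers are labelled as not treated, while the methods of the study describe control livers that received a plasmid for a red fluorescent protein. For the sgTrp53+MYC tumors the treatment label names no condition, and their group was read from the sample titles. Each library came from a whole piece of tissue of a different mouse, so fewer cells of a type and less RNA per cell cannot be told apart.

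In the Hippo pathway, the kinases MST1 and MST2 (encoded by Stk4 and Stk3) activate the kinases LATS1 and LATS2, which phosphorylate the coactivators YAP and TAZ (encoded by Yap1 and Wwtr1) and keep them out of the nucleus. YAP and TAZ that reach the nucleus bind DNA through the TEAD transcription factors and raise the transcription of genes such as Ccn1, Ccn2 and Ankrd1, and also of Lats2 and Amotl2, whose products act back on the pathway as inhibitors. The pathway is best known in liver for limiting organ size and for holding hepatocytes in their mature state. Its activity is set mainly by phosphorylation and location of the proteins, which RNA counts do not measure.

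TEAD factors bind a short element with the letters GGAATG, or CATTCC on the other strand. The stretch before the transcription start was read from RefSeq promoter sequences (build GRCm38.p6), which held 9 windows for 7 of the 10 genes and had no entry for Tead1, Tead4 and Ccn2. Each window spans 250 bases before and 50 bases after a start, and 14.7% of all 32851 such windows hold the element on either strand, with 1.36% holding 2 or more. It was found in 8 of the 9 member windows, which include a pair of overlapping windows for Wwtr1, the exception being the second of the Lats2 windows. Upstream stretches are shown, for a coactivator gene called lower in all 3 tumor groups (Wwtr1), a secreted target (Ccn1) and a gene called between kinds of tumor (Ajuba), each free of exons of coding genes, with the element in capitals. They were placed on GRCm39 by exact match to chr3:57483332-57483581, chr3:145355741-145355990 and chr14:54815119-54815368, all on the minus strand, and are written 5′ to 3′ towards the start.
Wwtr1: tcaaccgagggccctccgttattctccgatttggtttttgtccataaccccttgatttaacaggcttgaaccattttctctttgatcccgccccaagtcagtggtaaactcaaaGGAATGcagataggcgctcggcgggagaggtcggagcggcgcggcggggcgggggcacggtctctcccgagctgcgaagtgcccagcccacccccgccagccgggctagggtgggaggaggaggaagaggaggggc
Ccn1: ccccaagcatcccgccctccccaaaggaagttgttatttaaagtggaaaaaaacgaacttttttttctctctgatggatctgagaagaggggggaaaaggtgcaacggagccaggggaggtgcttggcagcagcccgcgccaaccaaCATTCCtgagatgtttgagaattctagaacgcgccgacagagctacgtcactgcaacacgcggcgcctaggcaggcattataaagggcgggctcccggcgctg
Ajuba: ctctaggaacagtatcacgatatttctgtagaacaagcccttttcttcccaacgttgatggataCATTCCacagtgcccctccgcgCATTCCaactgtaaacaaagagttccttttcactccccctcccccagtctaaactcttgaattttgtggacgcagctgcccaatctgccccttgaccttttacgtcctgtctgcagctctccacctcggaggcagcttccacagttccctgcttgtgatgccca
The element began 136 bases before the start in Wwtr1 and 103 bases before it in Ccn1, and the 2 copies in Ajuba began 186 and 164 bases before the start. Ankrd1 also held 2 copies, at 210 and 123 bases before the start. Yap1 held 1 at 141 bases and Amotl2 1 at 65 bases before the start, and in the first Lats2 window the element lay 5 bases after it. A match to 6 letters is a description of the sequence and not evidence of binding.

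Each library had between 18004977 and 66354724 reads assigned to genes. The 5 sgTrp53+MYC libraries stood in a table of their own, with 11.1% to 14.6% of reads ambiguous between genes against 3.03% to 6.3% in the other libraries, so that table and tumor type cannot be told apart. Trp53 itself, as the check of the labels, lay at 18.7, 79.9, 35.4, 51 and 48.8 CPM (counts relative to the scaled library size) in sgTrp53+MYC tumors, below all 10 libraries of the other tumors, which ranged from 90.8 to 176 CPM. Livers held 28.8 to 36.4 CPM of Trp53, and since CRISPR alters the sequence of a gene and not necessarily the amount of its RNA, this is a partial check. The summed level of 7 hepatocyte markers was 181910 to 225516 CPM in livers and 3812 to 28178 CPM in tumors. 2 libraries stood apart in the markers of other cells: Aldafermin+MYC replicate 3 reached 1136 CPM over 7 stellate cell and fibroblast markers, against 117 to 389 CPM in the rest of its group, and sgTrp53+MYC replicate 2 reached 779 CPM over 5 cholangiocyte markers, against 3.44 to 41.2 CPM. Aldafermin+MYC replicate 3 also had 512 CPM over 5 macrophage markers, against 150 to 294 CPM in the rest of its group. Its cholangiocyte and endothelial sums, 68.5 and 173 CPM, were the highest of its group as well.

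All 10 members had at least 1 CPM in at least 5 libraries and entered the fit over 14333 genes. A gene was called when its p-value from edgeR's quasi-likelihood test, adjusted over all genes by the Benjamini-Hochberg method, was under 0.05. CPM values are scaled by the trimmed mean of M values (TMM) throughout, and fold changes are on the log2 scale with their standard error (SE). Of the 10, 6 were called in Aldafermin+MYC tumors against livers, where 70.3% of all genes tested were called, and 6 in FGF19+MYC tumors, where 69.7% were called. In sgTrp53+MYC tumors 5 were called against a background of 69.9%. These shares are below the background, so the members were not called more often than genes at large. Tumors and livers did not overlap for 4, 5 and 2 members in Aldafermin+MYC, FGF19+MYC and sgTrp53+MYC tumors, against 58.8%, 62.5% and 56.2% of all genes. Wwtr1, Amotl2 and Lats2 were called lower and Tead4 was called higher in all 3 tumor groups. Tead4 was under 1 CPM in every liver, and its call in sgTrp53+MYC tumors was lost without replicate 2 (0.80, adjusted p = 0.292 by edgeR). Ccn2 and Ajuba rose in Aldafermin+MYC and FGF19+MYC tumors, and Ccn1 fell in sgTrp53+MYC tumors.

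**Figure D1:**
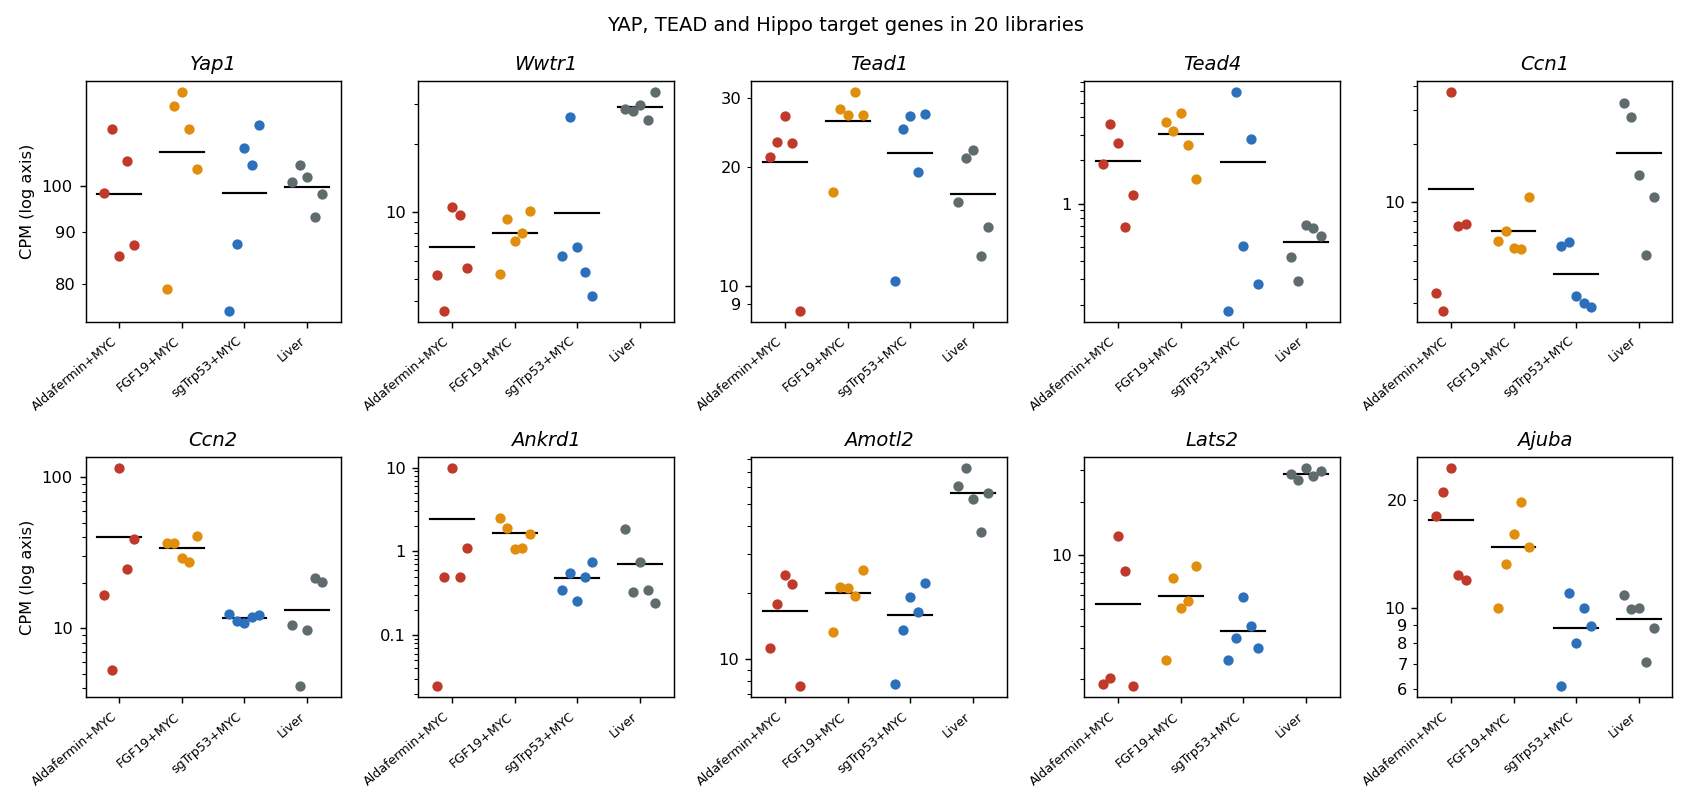
Each panel plots 1 gene, with CPM on a log axis and 1 point per library in the 4 groups of 5, and the black line is the group mean. Lats2 and Amotl2 lie higher in all 5 livers than in any tumor, Yap1 lies between 75.2 and 124 CPM throughout, and single points stand apart for Wwtr1 in sgTrp53+MYC and for Ccn1, Ccn2 and Ankrd1 in Aldafermin+MYC tumors.

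The coactivators came first. Yap1 (chr9:7932000-8004661, minus strand, 8 exons) encodes YAP, and its RNA level did not pass the test in any tumor group. It stood at 98.5, 114, 85.2, 106 and 87.4 CPM in Aldafermin+MYC tumors, at 79.1, 120, 124, 114 and 104 CPM in FGF19+MYC tumors and at 75.2, 87.7, 109, 105 and 115 CPM in sgTrp53+MYC tumors. Livers held 101, 105, 102, 93.1 and 98.1 CPM, inside the range of every tumor group and with a coefficient of variation of 4.54%, against 12.3% to 16.9% in tumors. The log2 fold change against livers was -0.03 in Aldafermin+MYC tumors (95% interval -0.31 to 0.26, adjusted p = 0.872 by edgeR), 0.11 in FGF19+MYC tumors (-0.17 to 0.40, adjusted p = 0.464) and -0.02 in sgTrp53+MYC tumors (-0.31 to 0.26, adjusted p = 0.899). These intervals leave room for changes of up to 0.40 on the log2 scale. Where libraries were scaled by their totals alone, the median of all genes moved to 0.97, 0.91 and 0.95 above livers and Yap1 to 0.82, 0.97 and 0.87, which is -0.15, 0.06 and -0.08 relative to that median.

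Wwtr1 (chr3:57363067-57483331, minus strand, 7 exons) encodes TAZ, the paralog of YAP, and its RNA was lower in tumors. Livers held 28.6, 28, 29.7, 25.7 and 34.1 CPM. Aldafermin+MYC tumors held 5.25, 3.62, 10.5, 9.69 and 5.64 CPM, FGF19+MYC tumors 5.3, 9.32, 7.41, 8.04 and 10.1 CPM, and sgTrp53+MYC tumors 6.34, 26.5, 6.95, 5.38 and 4.22 CPM. All tumors but 1 lay below every liver, and the exception, sgTrp53+MYC replicate 2 at 26.5 CPM, fell within the liver range. The log2 fold change was -2.08 ± 0.42 (SE, n = 5 and 5, adjusted p = 0.000216 by edgeR) in Aldafermin+MYC, -1.86 ± 0.42 (adjusted p = 0.000592) in FGF19+MYC and -1.56 ± 0.41 (adjusted p = 0.00229) in sgTrp53+MYC tumors. The direction held under every scaling, and the call in sgTrp53+MYC tumors was lost when libraries were scaled by totals alone, at -0.68.

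The library with liver-like Wwtr1 was also the one with high cholangiocyte markers, the epithelial cells of bile ducts. All 5 markers of that list were highest there in its group, with Krt19, a bile duct keratin, at 191 CPM against 0.0953 to 2.33 CPM, and Sox9, a transcription factor of ducts and progenitors, at 18.3 CPM against 0.3 to 1.14 CPM. Livers reached 44.3 to 124 CPM over the list, with Wwtr1 as high. Tumors with sums in that range had lower Wwtr1, at 10.1 CPM in FGF19+MYC replicate 5 (sum 87.6 CPM), 8.04 CPM in FGF19+MYC replicate 4 (45.8 CPM) and 10.5 CPM in Aldafermin+MYC replicate 3 (68.5 CPM). Endothelial cells also express Wwtr1, and the summed level of 6 endothelial markers was 220 to 357 CPM in livers against 51.9 to 178 CPM in tumors, with no marker at 0 in any group. The part of these cells in the Wwtr1 levels was not tested.

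Per kilobase of exon, Yap1 was the more abundant of the pair in every group. Its mean level was 10.5, 11.5, 10.5 and 10.7 CPM per kilobase in Aldafermin+MYC, FGF19+MYC, sgTrp53+MYC tumors and livers, and that of Wwtr1 was 0.586, 0.678, 0.836 and 2.47 CPM per kilobase. The log2 ratio of Wwtr1 to Yap1 counts, which does not depend on how libraries are scaled, fell from -1.78 ± 0.15 (SD, n = 5) in livers by 2.15 in Aldafermin+MYC tumors and by 1.99 in FGF19+MYC tumors. Each reached p = 0.00794 in the exact two-sided permutation test, the smallest p that 5 against 5 libraries allow, and 0.0397 after adjustment over 10 comparisons of ratios. In sgTrp53+MYC tumors the difference was -1.89 (exact permutation p = 0.0397, adjusted 0.0794), and -2.37 without replicate 2 (adjusted p = 0.0265), whose own ratio of -1.72 lay among the livers. Leaving out any 1 library gave between -2.37 and -1.61.

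**Figure D2:**
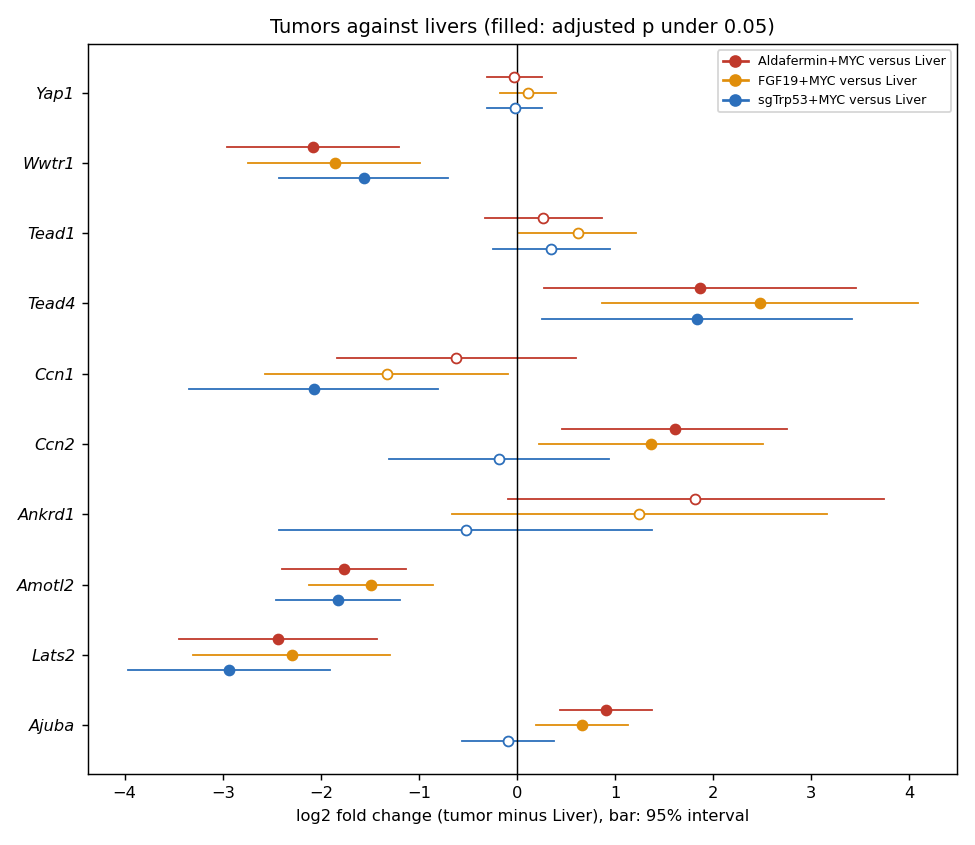
The log2 fold change of each of the 10 genes against livers is on the x axis for the 3 tumor groups, bars are 95% intervals, and filled points passed an adjusted p of 0.05. Wwtr1, Amotl2 and Lats2 lie to the left of 0 in all 3 comparisons, Tead4 to the right, and the intervals of Ccn1, Ankrd1 and Tead4 are the widest.

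Next came the DNA-binding partners. Tead1 (chr7:112278522-112506014, plus strand, 14 exons) and Tead4 (chr6:128201251-128277786, minus strand, 12 exons) encode TEAD factors, which have little activity without a coactivator. Tead1 lay at 21.2, 23.2, 27, 23.1 and 8.64 CPM in Aldafermin+MYC, at 17.3, 28.2, 27.2, 31.1 and 27.2 CPM in FGF19+MYC and at 10.3, 25, 27, 19.5 and 27.4 CPM in sgTrp53+MYC tumors. The livers, at 16.3, 21.1, 22.1, 11.9 and 14.1 CPM, overlapped with each tumor group. Differences from livers of 0.27 ± 0.29, 0.62 ± 0.29 and 0.35 ± 0.28 (log2, SE) did not pass the test (adjusted p = 0.408, 0.0619 and 0.278 by edgeR). In FGF19+MYC tumors the call changed with the processing, with an adjusted p under 0.05 in 7 of 19 alternatives and between 0.000536 and 0.14 over all of them. FGF19+MYC replicate 1 was the low library of its group, and without it the change was 0.73 (adjusted p = 0.0337).

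Tead4 was scarce in liver. Livers held 0.43, 0.293, 0.707, 0.683 and 0.598 CPM, all under the 1 CPM of the filter, so that the gene was tested only because tumors expressed it, and this bears on any count that includes it. The level was 1.87, 3.55, 2.61, 0.692 and 1.15 CPM in Aldafermin+MYC, 3.68, 3.17, 4.26, 2.55 and 1.48 CPM in FGF19+MYC and 0.181, 5.93, 0.507, 2.8 and 0.276 CPM in sgTrp53+MYC tumors. Only the FGF19+MYC group lay wholly above the livers, while in sgTrp53+MYC tumors 2 libraries were above and 3 were within or below the liver range. The log2 fold change was 2.48 ± 0.77 in FGF19+MYC (SE, adjusted p = 0.0077 by edgeR), 1.87 ± 0.76 in Aldafermin+MYC (adjusted p = 0.0344) and 1.84 ± 0.76 in sgTrp53+MYC tumors (adjusted p = 0.0363). The call held in 19, 13 and 11 of 19 alternatives. Without sgTrp53+MYC replicate 2, the library with high cholangiocyte markers, the change in sgTrp53+MYC tumors was 0.80 (adjusted p = 0.292, within 0.0037 to 0.292 over the alternatives). It was also not called without sgTrp53+MYC replicate 4 (1.67, adjusted p = 0.0704), and each of Aldafermin+MYC replicates 2 and 3 and liver replicates 1, 2 and 5 decided a call of Tead4, with adjusted p-values of up to 0.0881 in Aldafermin+MYC tumors.

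The log2 ratio of Tead4 to Tead1 counts was -4.94 ± 0.76 (SD, n = 5) in livers, -3.50 ± 0.91 in Aldafermin+MYC, -3.17 ± 0.77 in FGF19+MYC and -4.59 ± 2.01 in sgTrp53+MYC tumors. None of the differences from livers passed after adjustment over the 10 comparisons of ratios (differences of 1.45, 1.77 and 0.35, adjusted exact permutation p = 0.0794, 0.0529 and 0.7). Single libraries decided this: without Aldafermin+MYC replicate 4 the first was 1.83 (adjusted p = 0.0397) and without FGF19+MYC replicate 5 the second was 2.03 (adjusted p = 0.0265). The other TEAD genes moved apart from each other. Tead3 was lower in the 3 tumor groups, at 10.4, 7.42 and 6.96 CPM against 19.7 CPM in livers (log2 fold changes of -0.93, -1.41 and -1.50, adjusted p = 0.0388, 0.00356 and 0.00211 by edgeR), although the first of these held in only 9 of 19 alternatives (adjusted p from 0.00138 to 0.907). Scaled by totals alone, Tead3 was at -0.06, -0.55 and -0.58 with none called. Tead2, at 4.39, 2.31 and 2.52 CPM against 1.67 CPM in livers, was called in Aldafermin+MYC tumors only (1.40 ± 0.61, adjusted p = 0.0466), and in 8 of 19 alternatives (adjusted p from 0.004 to 0.109). Whether Tead2 differed between tumor groups was tested directly between Aldafermin+MYC and FGF19+MYC tumors, without a call (0.92, adjusted p = 0.839). Per kilobase, mean Tead1 was above mean Tead3 in FGF19+MYC (1.93 against 1.10 CPM per kilobase) and sgTrp53+MYC tumors (1.61 against 1.04), and in Aldafermin+MYC tumors the 2 means were close (1.52 and 1.54), with no test run between genes. In livers the order was the other way round, with 2.94 CPM per kilobase of Tead3 and 1.26 of Tead1.

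**Figure D3:**
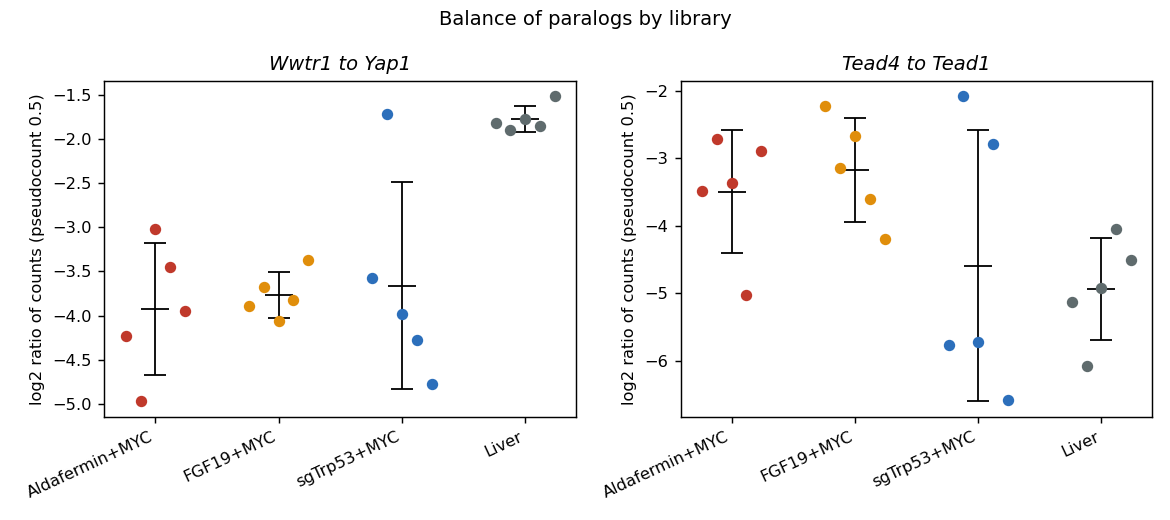
The y axis gives the log2 ratio of counts of Wwtr1 to Yap1 on the left and of Tead4 to Tead1 on the right, with 1 point per library and black bars for the mean and SD of 5 libraries. On the left the livers form a tight group near -1.78 that the tumors do not reach except 1 sgTrp53+MYC library at -1.72, and on the right the sgTrp53+MYC tumors spread from -6.59 to -2.08.

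Of the inhibitors, Lats2 and Amotl2 were lower in every tumor than in any liver. Lats2 (chr14:57926960-57995845, minus strand, 8 exons), the kinase that phosphorylates YAP and TAZ, stood at 28.8, 26.6, 31.1, 27.9 and 29.6 CPM in livers. Its level was 1.87, 2.03, 12.8, 8.11 and 1.82 CPM in Aldafermin+MYC, 2.57, 7.46, 5.03, 5.52 and 8.72 CPM in FGF19+MYC and 2.55, 3.4, 5.82, 3.98 and 3.01 CPM in sgTrp53+MYC tumors. No tumor came near a liver, and the spread was larger among Aldafermin+MYC tumors (a coefficient of variation of 93%) than among livers (5.91%). Lats2 fell by 2.44 ± 0.48 on the log2 scale in Aldafermin+MYC (SE, adjusted p = 0.000179 by edgeR), by 2.29 ± 0.48 in FGF19+MYC (adjusted p = 0.000321) and by 2.94 ± 0.49 in sgTrp53+MYC tumors (adjusted p = 2.85e-05), which is 5.42, 4.90 and 7.66 times lower. The calls held in all 19 alternatives of each comparison.

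Amotl2 (chr9:102593836-102610617, plus strand, 10 exons) encodes angiomotin-like 2, a junction protein that binds and retains YAP. Livers held 60.7, 73.1, 52.6, 37.4 and 56 CPM. The tumors held 11.3, 17.8, 24.1, 21.9 and 7.55 CPM (Aldafermin+MYC), 13.3, 21.1, 20.9, 19.3 and 25.2 CPM (FGF19+MYC) and 7.73, 13.5, 19.1, 16.4 and 22.2 CPM (sgTrp53+MYC). No tumor group overlapped with livers, and the level fell by 1.76 ± 0.30, 1.49 ± 0.30 and 1.83 ± 0.30 on the log2 scale (SE, adjusted p = 4.04e-05, 0.000226 and 2.59e-05 by edgeR). Scaling by totals alone kept the direction and ended the call in FGF19+MYC tumors, at -0.63 (adjusted p = 0.0963, within 5.87e-07 to 0.0963 over the alternatives).

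Both genes are also active in endothelium, and Lats2 was highest in each tumor group in the library with the highest endothelial sum. Those libraries also had the highest macrophage sums of their groups (512, 279 and 149 CPM in Aldafermin+MYC, FGF19+MYC and sgTrp53+MYC tumors). Aldafermin+MYC replicates 3 and 4 had 173 and 163 CPM over the 6 endothelial markers and the highest Lats2 of their group, and replicates 1, 2 and 5 had 82.4, 82.4 and 55.6 CPM and the lowest. In FGF19+MYC tumors the lowest Lats2 and Amotl2 were both in replicate 1, which also had the lowest endothelial sum at 75.9 CPM, and the highest were both in replicate 5, with 178 CPM. Among sgTrp53+MYC tumors the highest Lats2 was in replicate 3, again the library with the highest endothelial sum, 132 CPM. Amotl2 did not follow the markers in the same way: among sgTrp53+MYC tumors its highest level, 22.2 CPM, was in replicate 5, with an endothelial sum of 75.4 CPM. In livers, the highest Amotl2 (replicate 2, 73.1 CPM) stood beside the lowest endothelial sum, 220 CPM, and the lowest Amotl2 (replicate 4, 37.4 CPM) beside the highest sum, 357 CPM. Lats2 was 27.9 CPM in that liver replicate 4, and its highest liver level, 31.1 CPM, was in replicate 3, with an endothelial sum of 307 CPM. The part of endothelial cells or macrophages in the tumor values was not tested.

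**Figure D4:**
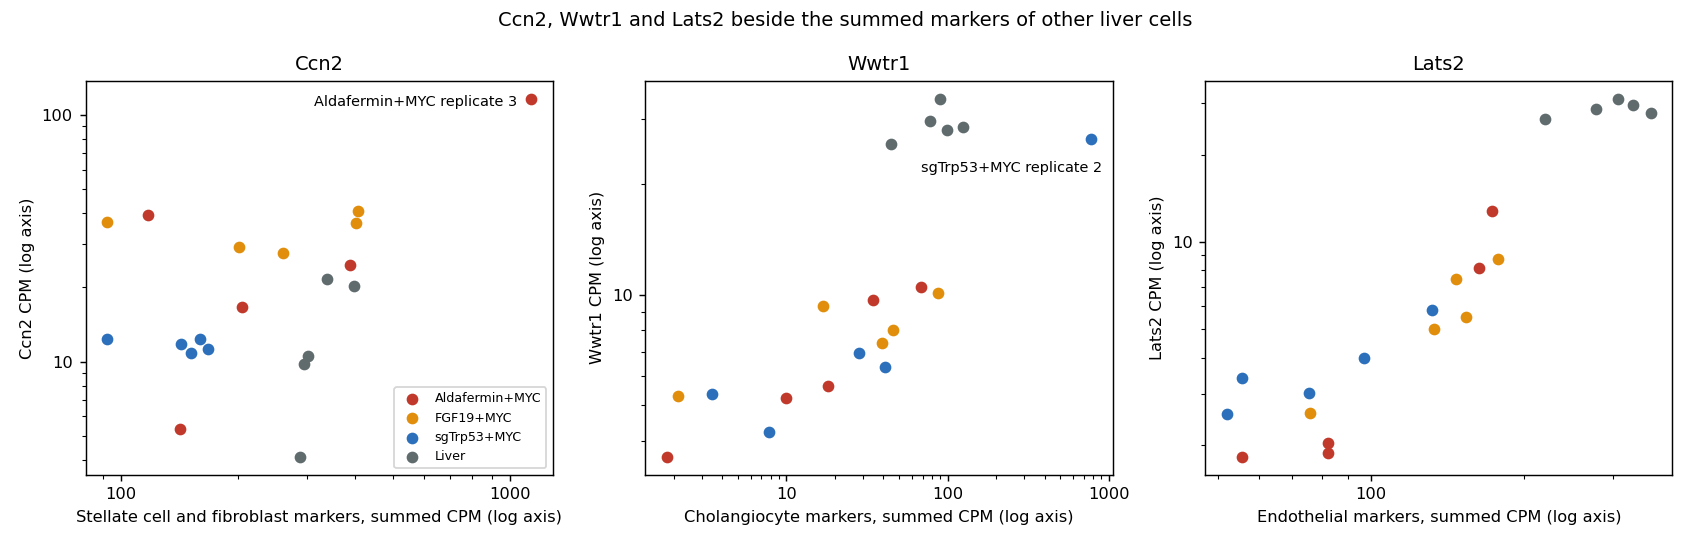
CPM of Ccn2, Wwtr1 and Lats2 (y, log axis) are plotted by library against summed CPM of stellate cell and fibroblast, cholangiocyte and endothelial markers (x, log axis), colored by group. Aldafermin+MYC replicate 3 (Ccn2 116 CPM, marker sum 1136 CPM) and sgTrp53+MYC replicate 2 (Wwtr1 26.5 CPM, marker sum 779 CPM) sit at the right edge of their panels, and livers hold the highest endothelial sums and Lats2 levels.

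Ajuba (chr14:54804787-54815027, minus strand, 8 exons) encodes a LIM protein that binds LATS kinases at junctions and restrains them. It was higher in the tumors of both hormones and not in sgTrp53+MYC tumors. Levels were 18, 21, 24.5, 12.4 and 12 CPM in Aldafermin+MYC, 10, 13.3, 16.1, 19.7 and 14.8 CPM in FGF19+MYC and 6.08, 11, 8, 10 and 8.92 CPM in sgTrp53+MYC tumors, and 10.9, 9.97, 10, 7.1 and 8.81 CPM in livers. Every Aldafermin+MYC tumor lay above every liver, 1 FGF19+MYC tumor lay in the liver range, and the sgTrp53+MYC tumors covered it. The log2 fold change against livers was 0.91 ± 0.23 (SE, adjusted p = 0.00145 by edgeR), 0.66 ± 0.23 (adjusted p = 0.0138) and -0.09 ± 0.22 (adjusted p = 0.733). Scaled by totals alone, Ajuba was also higher in sgTrp53+MYC tumors, at 0.80, but this is -0.15 relative to the median of all genes under that scaling.

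Ccn2, Ccn1 and Ankrd1 are the targets most often read as output of YAP and TAZ, and here they did not move as a group. Ccn2 (chr10:24471333-24474900, plus strand, 5 exons), a secreted matrix protein formerly named connective tissue growth factor, lay at 16.6, 5.31, 116, 24.7 and 39.1 CPM in Aldafermin+MYC and at 36.9, 36.6, 29.2, 27.6 and 40.6 CPM in FGF19+MYC tumors. It lay at 12.4, 11.2, 10.8, 11.8 and 12.3 CPM in sgTrp53+MYC tumors and at 10.5, 4.11, 9.76, 21.6 and 20.3 CPM in livers. Every FGF19+MYC tumor was above every liver, whereas Aldafermin+MYC tumors ranged over 21.8 times from lowest to highest. The log2 fold change was 1.37 ± 0.54 in FGF19+MYC (SE, adjusted p = 0.0312 by edgeR), 1.61 ± 0.55 in Aldafermin+MYC (adjusted p = 0.0135) and -0.18 ± 0.54 in sgTrp53+MYC tumors (adjusted p = 0.778). The Aldafermin+MYC call rested on replicate 3, without which the change was 0.70 (adjusted p = 0.159, within 0.000596 to 0.159 over the alternatives). In FGF19+MYC tumors the call was lost without FGF19+MYC replicate 5 or without liver replicate 1, 2 or 3, with changes of 1.14 to 1.30 and adjusted p-values of 0.0546 to 0.0751.

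Ccn1 (chr3:145352720-145355738, minus strand, 5 exons), the matrix protein formerly named Cyr61, was called lower in sgTrp53+MYC tumors and was not called in the groups where Ccn2 rose. Livers varied widely, at 32.5, 27.6, 13.8, 5.33 and 10.6 CPM. Tumors held 3.4, 2.75, 37.1, 7.58 and 7.69 CPM (Aldafermin+MYC), 6.31, 7.14, 5.83, 5.72 and 10.7 CPM (FGF19+MYC) and 5.95, 6.21, 3.29, 3.01 and 2.87 CPM (sgTrp53+MYC). Apart from Aldafermin+MYC replicate 3, the highest of all 20 libraries, tumors lay in the lower part of the liver range or below it. The fall in sgTrp53+MYC tumors, by 2.07 ± 0.60 on the log2 scale, was called (SE, adjusted p = 0.00486 by edgeR). Changes of -0.62 ± 0.58 in Aldafermin+MYC and -1.33 ± 0.59 in FGF19+MYC tumors were not (adjusted p = 0.353 and 0.0525). Without Aldafermin+MYC replicate 3 the former became -1.75 (adjusted p = 0.00298, within 0.00298 to 0.681 over the alternatives), and the latter was called in 8 of 19 alternatives, among them those without FGF19+MYC replicate 5 (-1.52) and without liver replicate 4 (-1.56) or 5 (-1.47). Scaling by totals alone gave 0.27, -0.48 and -1.22 in the order Aldafermin+MYC, FGF19+MYC and sgTrp53+MYC, with none called.

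Ankrd1 (chr19:36089352-36097506, minus strand, 9 exons) encodes a nuclear ankyrin repeat protein known from stretched muscle and had few counts. It lay at 0.0243, 0.496, 9.98, 0.5 and 1.09 CPM in Aldafermin+MYC tumors, the first of these a single count, and at 2.51, 1.89, 1.08, 1.09 and 1.62 CPM in FGF19+MYC tumors. It lay at 0.346, 0.546, 0.254, 0.49 and 0.737 CPM in sgTrp53+MYC tumors and at 1.86, 0.33, 0.751, 0.341 and 0.239 CPM in livers. Only 8 libraries reached 1 CPM, all 5 of the FGF19+MYC group among them and none of the sgTrp53+MYC group. The gene was thus tested only because FGF19+MYC tumors expressed it, and this bears on any count or call that includes it. None of the differences from livers was called (1.82 ± 0.92, 1.25 ± 0.92 and -0.52 ± 0.91, adjusted p = 0.0825, 0.23 and 0.622 by edgeR), and without Aldafermin+MYC replicate 3 the first was -0.37. It was called without Aldafermin+MYC replicate 1 (2.14, adjusted p = 0.0227) and without liver replicate 1 (2.53, adjusted p = 0.0317), within 0.0142 to 0.747 over the alternatives.

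Aldafermin+MYC replicate 3 held the highest value of its group for 8 of the 10 members. The share of all genes that were highest in this library was not counted, so the 8 cannot be read as a trait of the members. It was also highest of its group for 4 of 5 macrophage markers and 5 of 6 immediate early genes, and for 0 of 7 hepatocyte markers. Of the stellate cell and fibroblast markers, 4 of 7 were highest there, led by Col1a1, a fibrillar collagen, at 871 CPM against 49.9 to 235 CPM, and by Acta2, the actin of myofibroblasts, at 155 CPM against 19.8 to 63.5 CPM. The other 3 markers were highest in Aldafermin+MYC replicate 4, whose sum was 389 CPM, so the list did not rise as a whole in replicate 3. None of the 7 was at 0 in any group, and their sums were 91.9 to 407 CPM in FGF19+MYC, 92.3 to 167 CPM in sgTrp53+MYC tumors and 288 to 397 CPM in livers. FGF19+MYC tumors with sums of 91.9 and 403 CPM had nearly equal Ccn2, 36.9 and 36.6 CPM. The sum of 6 immediate early genes, which respond to handling as well as to growth signals, was 153 CPM in Aldafermin+MYC replicate 3 against 58.6 to 114 CPM in the rest of its group. It was 125 to 223 CPM in FGF19+MYC, 58.3 to 122 CPM in sgTrp53+MYC tumors and 61 to 162 CPM in livers. The part of these markers in Ccn1, Ccn2 and Ankrd1 was not tested.

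Between the tumors of the hormones, no member was called. Of all 14333 genes 0 were called between Aldafermin+MYC and FGF19+MYC tumors by edgeR's quasi-likelihood test (0% of genes, with 1048, or 7.31%, at an unadjusted p under 0.05), 96 by DESeq2 and 59 by edgeR's likelihood ratio test, and no member was called by any of them. The groups overlapped for all 10 members (0 of 10 apart, against 1.46% of all genes). Yap1 was at -0.14 with a 95% interval of -0.43 to 0.14 on the log2 scale. Ajuba was at 0.25 (-0.22 to 0.71), an interval that includes a difference as large as its change of 0.66 between FGF19+MYC tumors and livers. For the targets the intervals were wider, at 0.24 (-0.87 to 1.35) for Ccn2, 0.71 (-0.51 to 1.94) for Ccn1 and 0.57 (-1.23 to 2.37) for Ankrd1, and that of Ankrd1 includes differences of more than 2 times in either direction. Without Aldafermin+MYC replicate 3 these 3 values changed sign, to -0.67, -0.42 and -1.63, none of them called.

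Against sgTrp53+MYC tumors, the pooled Aldafermin+MYC and FGF19+MYC tumors, called hormone tumors from here on, had higher Ccn2 and Ajuba. With 23.7% of all genes called in this comparison, 2 of 10 members is close to the background. Ccn2 was higher by 1.67 ± 0.50 (log2, SE, n = 10 and 5, adjusted p = 0.0208 by edgeR), a difference of 3.18 times between group means of 37.2 and 11.7 CPM. The 5 sgTrp53+MYC tumors lay within 10.8 to 12.4 CPM, and 9 of the 10 hormone tumors lay above them, the exception being Aldafermin+MYC replicate 2 at 5.31 CPM. Ajuba was higher by 0.87 ± 0.20 (adjusted p = 0.0042), at 16.2 against 8.8 CPM, with 1 FGF19+MYC tumor within the sgTrp53+MYC range. Of the others, Ankrd1 at 2.06 ± 0.82 (adjusted p = 0.0753) and Ccn1 at 1.10 ± 0.53 (adjusted p = 0.14) did not pass, and Yap1 at 0.07 had an interval of -0.18 to 0.31. Ankrd1 was called without Aldafermin+MYC replicate 1 (2.22, adjusted p = 0.028, within 0.0261 to 0.283 over 24 alternatives). It entered the fit only through the FGF19+MYC tumors, which are on the higher side of this comparison.

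Ajuba was called in all 24 alternatives and Ccn2 in 23. With the libraries of high stellate and high cholangiocyte markers (Aldafermin+MYC replicate 3 and sgTrp53+MYC replicate 2) left out together, a choice made after the data were seen, 1 member was called, and Ccn2 was at 1.17 (adjusted p = 0.0632, within 0.00228 to 0.0632 over the alternatives). Since the sgTrp53+MYC libraries form a table of their own, neither difference can be told apart from a difference between tables.

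**Figure D5:**
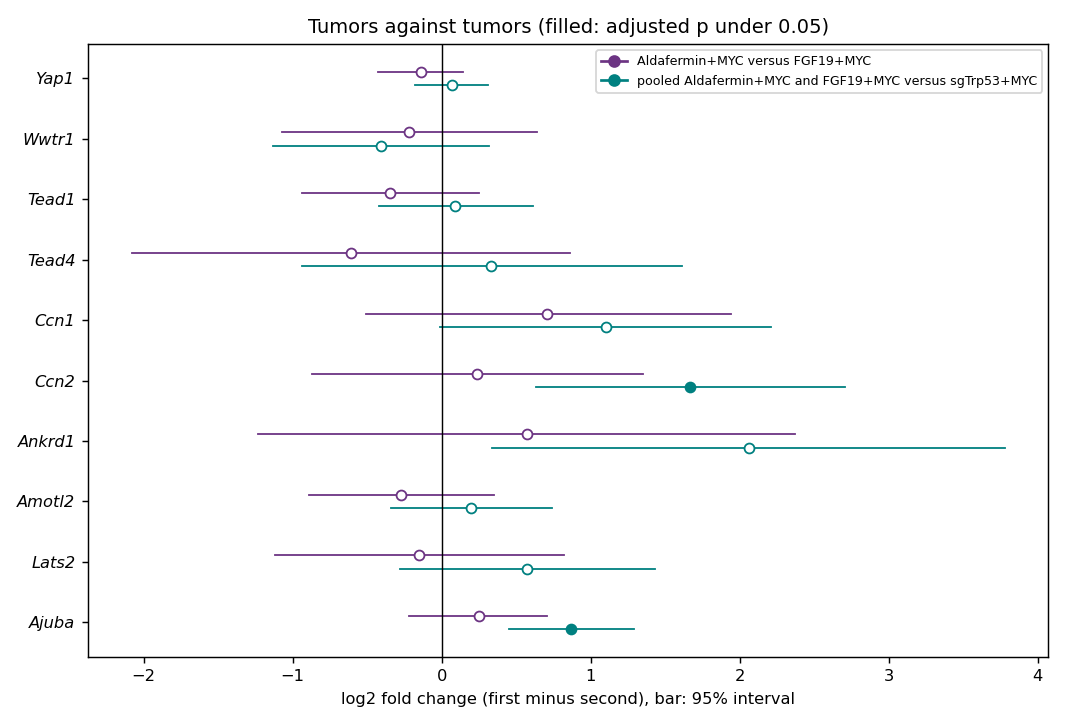
The x axis gives log2 fold changes of the 10 genes for Aldafermin+MYC against FGF19+MYC tumors and for both pooled against sgTrp53+MYC tumors, bars are 95% intervals, and filled points passed an adjusted p of 0.05. Only Ccn2 (1.67) and Ajuba (0.87) in the pooled comparison are filled.

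The rest of the pathway was read from a list of 26 genes, the kinases, scaffolds, junction proteins and TEAD partners that are no members. Called higher and lower were 8 and 10 in Aldafermin+MYC, 7 and 10 in FGF19+MYC and 9 and 10 in sgTrp53+MYC tumors against livers, with list medians of -0.02, 0.12 and 0.18 on the log2 scale beside 0.13, 0.06 and 0.07 over all genes tested. Shares of 69.2%, 65.4% and 73.1% called were near the background of each comparison. Stk4 (MST1) was at 36.2, 41 and 38.6 CPM in Aldafermin+MYC, FGF19+MYC and sgTrp53+MYC tumors and 32 CPM in livers, without a call. Stk3 (MST2) was called lower in FGF19+MYC tumors, at 8.21 against 11.3 CPM in livers (-0.46 ± 0.19, adjusted p = 0.0388 by edgeR), which held in 9 of 19 alternatives (adjusted p from 0.00931 to 0.309). Its changes of -0.11 in Aldafermin+MYC and 0.14 in sgTrp53+MYC tumors were not called, nor was the direct difference between Aldafermin+MYC and FGF19+MYC tumors (0.35, adjusted p = 0.763). Lats1, the paralog of Lats2, was higher in FGF19+MYC and sgTrp53+MYC tumors, at 55.9 and 63.9 against 39.4 CPM (0.50 ± 0.17 and 0.70 ± 0.17, adjusted p = 0.0129 and 0.00123), opposite in direction to Lats2.

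Upstream of the kinases, Nf2 (merlin, a membrane scaffold that recruits LATS) was higher in all 3 tumor groups, at 91.2, 102 and 119 CPM against 43.8 CPM in livers, with log2 fold changes of 1.06, 1.21 and 1.44 (adjusted p = 1.6e-05, 3.21e-06 and 3.35e-07 by edgeR). Amot (angiomotin) rose by 1.74, 1.95 and 1.87, from 11.2 CPM in livers to 37.4, 43.2 and 41 CPM, while its relative Amotl2 fell. Rassf1, a scaffold of MST kinases, rose as well, from 9.12 CPM to 18.5, 21.3 and 22 CPM. Among the genes that fell, the kinase Taok3 was at 43.4 CPM in Aldafermin+MYC tumors against 105 CPM in livers (-1.27, or -0.41 and not called with scaling by totals alone), and Wwc2, a scaffold related to KIBRA, at 5.89 against 29.6 CPM in FGF19+MYC tumors (-2.32). Wtip, a LIM protein related to Ajuba, fell by 2.39 on the log2 scale to 0.577 CPM in sgTrp53+MYC tumors.

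Between tumors, 0 of the 26 were called for Aldafermin+MYC against FGF19+MYC and 5 for the pooled hormone tumors against sgTrp53+MYC (19.2%, beside 23.7% of all genes). Amotl1 (1.72 ± 0.33, adjusted p = 0.00114 by edgeR) and Wtip (1.27 ± 0.31, adjusted p = 0.00617) were higher in the hormone tumors, as was Wwc2. Sav1, the scaffold of the MST kinases (-0.53 ± 0.12, adjusted p = 0.00277), and Vgll4, a competitor of YAP for TEAD (-0.72 ± 0.23, adjusted p = 0.0269), were lower. Vgll4 lost its call without sgTrp53+MYC replicate 3 or 5 (-0.61 and -0.59, adjusted p = 0.0857 and 0.0978), and the count of 5 ranged from 3 to 8 with single libraries left out, at 8 without sgTrp53+MYC replicate 1 and at 3 without replicate 3 or 5.

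A second list held 17 further genes known as YAP and TAZ targets in other tissues, of which 16 were tested. Called higher and lower were 3 and 5 in Aldafermin+MYC, 2 and 4 in FGF19+MYC and 2 and 4 in sgTrp53+MYC tumors against livers, shares of 50%, 37.5% and 37.5%, with medians of -0.27, -0.49 and -0.23. These shares are below those over all genes, 70.3%, 69.7% and 69.9%. Fjx1, a secreted modulator of Fat and Dachsous signaling, was higher in all 3 tumor groups, most in sgTrp53+MYC tumors, at 6.33 CPM against 0.186 CPM in livers (5.12 ± 0.70, adjusted p = 2.34e-06 by edgeR) and 0.968 CPM in FGF19+MYC tumors (2.42 ± 0.67, adjusted p = 0.00342). Like Tead4, Fjx1 lay under the 1 CPM of the filter in livers and was tested only because tumors expressed it. This bears on each count and call that includes it, also between tumors, since Fjx1 was highest in sgTrp53+MYC tumors. F3 (tissue factor), Rbms3 (an RNA-binding protein) and Nuak2 (a kinase related to AMPK) were among those that fell. Rbms3 went from 5.15 CPM in livers to 1.22, 1.17 and 0.578 CPM in Aldafermin+MYC, FGF19+MYC and sgTrp53+MYC tumors (-2.08, -2.13 and -3.14), and Nuak2 from 13.8 to 4.65 and 3.98 CPM in Aldafermin+MYC and sgTrp53+MYC tumors. Ptpn14, a phosphatase that binds YAP, fell by 1.92 ± 0.46 on the log2 scale in sgTrp53+MYC tumors (adjusted p = 0.000945), from 4.19 to 1.1 CPM. With scaling by totals alone the calls were lost for Ptpn14 (-1.01, adjusted p = 0.0635, within 1.88e-05 to 0.0635 over the alternatives) and for Nuak2 in Aldafermin+MYC (-0.70, adjusted p = 0.127, within 1.52e-05 to 0.127) and sgTrp53+MYC tumors (-0.87, adjusted p = 0.0605, within 1.32e-06 to 0.0605). Igfbp3, a binding protein of insulin-like growth factors, was at 75.3 against 27.9 CPM in Aldafermin+MYC tumors (1.43 ± 0.32, adjusted p = 0.000635).

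In the pooled comparison with sgTrp53+MYC tumors, 4 genes of this list were called (25%, close to the 23.7% of all genes tested). The list median was 0.18 on the log2 scale, beside -0.02 over all genes. All 4 called genes were lower in the hormone tumors, unlike Ccn2. They were Fjx1 (-2.58 ± 0.46, adjusted p = 0.00062 by edgeR), the adaptor Asap1 (-0.87 ± 0.22, adjusted p = 0.00697), the membrane protein Crim1 (-0.62 ± 0.17, adjusted p = 0.0146) and F3 (-1.30 ± 0.44, adjusted p = 0.0375). The calls of Crim1 and F3 were lost without sgTrp53+MYC replicate 2, at -0.50 (adjusted p = 0.0563) and -0.80 (adjusted p = 0.203), and that of F3 also in 8 other alternatives, at adjusted p-values of 0.0139 to 0.203 over all of them.

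Likeness of profile was measured over the 20 libraries as the root mean square difference of centered log2 CPM from each of the 14332 other genes. Ubqln1 and Dyrk1a were nearest to Yap1, at 0.11 each, where Yap1 itself varied by only 0.19 around its mean. Dnajb5 (0.35) and Mapk12 (0.38) were nearest to Wwtr1, Plec (0.18) and N4bp1 (0.21) to Tead1, and Arhgap9 (0.66) and Map3k6 (0.75) to Tead4. Zbtb4 (0.27) and Zmynd15 (0.31) were nearest to Lats2, Fam168a (0.24) and Zbtb7b (0.25) to Amotl2, and Tmem214 and Plod3 (0.27 each) to Ajuba. Distances to Ccn2, Ccn1 and Ankrd1 were larger than those to the other members apart from Tead4. They were not scaled to the spread of each member, which was 0.52 for Ajuba, so they do not rank how closely a profile was matched. Ccn2 was nearest to Tagln (0.55), an actin-binding protein of smooth muscle and myofibroblasts, and Prss23 (0.62), Ccn1 to Dkk3 (0.59) and Tmem181a (0.62), and Ankrd1 to the growth factor Tgfb2 (0.99) and the collagen Col12a1 (1.09), against spreads of 1.10, 1.09 and 1.43 of these targets around their own means.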

How the data were processed

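The data were RNA sequencing counts of 20 libraries. Per the labels and methods, the authors extracted RNA, made libraries with a stranded mRNA kit, aligned paired reads with HISAT2 to build mm39 and deposited raw htseq-count counts per gene of the NCBI RefSeq annotation, unnormalized, in 2 tables. The submitters' processing notes name bcl2fastq 2.20.0.422. The strand setting of the counting is not given in the sources used here, and Ccn2 and Ccn1 share 36.5% and 23% of their exon bases with the antisense genes Gm15270 and Gm17501 (0 to 12 and 2 to 54 counts per library), so these members, together with Ankrd1 (24.3%, antisense) and Lats2 (28.2%, a read-through gene on the same strand), are uncertain to that extent. Coordinates and exon lengths are those of GENCODE M39 on GRCm39.

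Groups and replicate numbers came from sample titles. All sample columns were used (0 left out), and 5 summary lines were removed. Reads on genes numbered 18004977 to 66354724 per library. A floor of 3 counts was set for reading low values, covers counting error only and entered no filter, test or ratio. No library was a copy of another (chi-square over degrees of freedom of at least 13.9 within groups). In R 4.3.3, edgeR 4.0.16 was run with TMM scaling on the 14333 of 50559 genes that reached 1 CPM in 5 or more libraries, as 1 quasi-likelihood model of 4 groups with 5 contrasts, two-sided, Benjamini-Hochberg over all genes, threshold 0.05. Ratios used counts plus 0.5 and an exact permutation test. The test was tried on simulated data. Alternatives were DESeq2 1.42.0 (also its size factors), the likelihood ratio test, scaling by totals, no filter, only the compared groups, the replicate number as a block, offsets for GC content and length (13847 genes with a value, 96.6%), a pseudocount of 1 for ratios, and each library left out.

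The members and lists were chosen with earlier results of these data known. Named genes were all members, Stk3, Stk4, Lats1, Nf2, Tead2 and Tead3, the 4 genes of each list and comparison with the smallest adjusted p among those called, and for each member its 2 nearest genes by profile. Wwc2 between tumors, Tead and list genes repeated across comparisons, and the marker genes Krt19, Sox9, Col1a1 and Acta2 were named after their values were seen.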

Additional observations from a re-analysis of the deposited data

Results flagged for a closer look

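In 68 groups of 5 libraries looked at, 9 held a single library far from the other 4 by Dixon's criterion, where chance alone gives about 1 in 20, or 3.4. Of the members, these were Wwtr1 in sgTrp53+MYC replicate 2 (26.5 CPM), Tead1 in FGF19+MYC replicate 1 (17.3 CPM, low), Ccn1 in Aldafermin+MYC replicate 3 (37.1 CPM) and in FGF19+MYC replicate 5 (10.7 CPM), and Ankrd1 in Aldafermin+MYC replicate 3 (9.98 CPM). Of the marker sums, they were cholangiocyte markers in sgTrp53+MYC replicate 2 (779 CPM), stellate cell and fibroblast markers in Aldafermin+MYC replicate 3 (1136 CPM), hepatocyte markers in FGF19+MYC replicate 5 (28178 CPM) and striated muscle markers in FGF19+MYC replicate 1 (4.47 CPM). Ccn2 in Aldafermin+MYC replicate 3, at 116 CPM, was not among them.

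Ccn2 (1.67 on the log2 scale) and Ajuba (0.87) differed between the pooled hormone tumors and sgTrp53+MYC tumors by a direct test of that difference. The table of the sgTrp53+MYC libraries and their tumor type cannot be told apart.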

How the results depend on the processing

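Low counts limit Tead4 and Ankrd1, and 5 libraries per group limit every interval given. Of 109 gene-level values, 106 kept their direction and side of the threshold with DESeq2, 107 with the likelihood ratio test, 106 with DESeq2's size factors, 79 with scaling by totals, 95 without the filter, 102 with only the compared groups and 101 with GC and length offsets. The share of higher calls against livers moved from 54.6%, 52.9% and 52.8% to 78.2%, 77.3% and 77.9% with scaling by totals. The cause of the changes below was not tested, beyond fewer libraries where some were left out.

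Against livers, scaling by totals reversed Yap1 (0.82 in Aldafermin+MYC, 0.87 in sgTrp53+MYC), Ccn1 (0.27 in Aldafermin+MYC), Stk3 (0.74 in Aldafermin+MYC, 0.39 in FGF19+MYC) and, in sgTrp53+MYC tumors, Ccn2 (0.70), Ankrd1 (0.33) and Ajuba (0.80). Without the filter Yap1 (0.15) and Stk3 (0.07) in Aldafermin+MYC and Yap1 (0.26), Ccn2 (0.11) and Ajuba (0.20) in sgTrp53+MYC tumors reversed, as did Yap1 (-0.04) and Tead1 (-0.02) between pooled hormone and sgTrp53+MYC tumors. The offsets reversed Stk3 (0.25, Aldafermin+MYC), Ccn2 (0.12) and Ajuba (0.20, both sgTrp53+MYC). With only the compared groups, Yap1 (0.10) and Ajuba (0.03) reversed in sgTrp53+MYC tumors. In FGF19+MYC tumors that setting called 11 of the 16 YAP and TAZ targets tested in place of 6. Over all genes it called 10811 of 14333 there in place of 9991. Between hormone tumors, DESeq2 and the likelihood ratio test each called 1 target, Igfbp3.

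Leaving out Aldafermin+MYC replicate 3 and sgTrp53+MYC replicate 2 together reversed Yap1 (0.11 in Aldafermin+MYC, 0.13 in sgTrp53+MYC) and Ankrd1 (-0.27 in Aldafermin+MYC) against livers, Ccn1 (-0.40), Ccn2 (-0.65) and Ankrd1 (-1.61) between hormone tumors, and Wwtr1 (0.24) in the pooled comparison, where 1 member was called in place of 2.

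Replicate numbers did not pair samples (correlations of deviations from -0.333 to 0.333, median -0.022, 6 of 30 pairs over 0.1). With the replicate number as a block 103 of 109 values were unchanged in direction and call, Tead4 lost its call in Aldafermin+MYC (1.66) and sgTrp53+MYC tumors (1.21), and Ccn2 (-0.19) and Ankrd1 (-0.27) reversed between hormone tumors.

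With single libraries left out, values that reversed ranged, in Aldafermin+MYC against livers, from -0.08 to 0.08 (Yap1), -0.37 to 2.53 (Ankrd1) and -0.18 to 0.03 (Stk3). In sgTrp53+MYC against livers they ranged from -0.08 to 0.06 (Yap1), -0.41 to 0.07 (Ccn2), -0.76 to 0.19 (Ankrd1), -0.18 to 0.02 (Ajuba) and -0.29 to 0.83 (Tead2). Between hormone tumors the ranges were -0.42 to 0.97 (Ccn1), -0.67 to 0.52 (Ccn2), -1.63 to 0.89 (Ankrd1) and -0.77 to 0.07 (Lats2), and in the pooled comparison -0.02 to 0.13 (Yap1), -0.60 to 0.38 (Wwtr1) and -0.09 to 0.19 (Tead1). The ratio of Wwtr1 to Yap1 ranged from -2.37 to -1.61 (sgTrp53+MYC against livers), -0.38 to 0.10 (hormone tumors) and -0.46 to 0.30 (pooled). That of Tead4 to Tead1 ranged from 1.16 to 1.83, 1.49 to 2.03 and -0.28 to 0.85 in Aldafermin+MYC, FGF19+MYC and sgTrp53+MYC tumors against livers, -0.59 to 0.05 between hormone tumors and 0.76 to 1.89 in the pooled comparison, passing at 1.89 without sgTrp53+MYC replicate 2 (adjusted exact permutation p = 0.0317). Calls in the pathway list ranged from 3 to 8 in the pooled comparison, and calls of targets from 0 to 1 between hormone tumors (1 without Aldafermin+MYC replicate 4).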
